A study of Caenorhabditis elegans with 2 samples.

Results

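The mitochondrial ribosomal protein genes of Caenorhabditis elegans were examined for binding of the AP-2 family transcription factor APTF-2. Members were all protein-coding genes of the Ensembl WBcel235 annotation whose name starts with mrpl- (large subunit) or mrps- (small subunit), which gave 70 of 19973 protein-coding genes, 41 of the large and 29 of the small subunit. Each gene was scored in a promoter window that ran from 1000 bp ahead of any transcript start to 200 bp past it. The study precipitated chromatin from whole young adults 61.5 h of age with an anti-GFP antibody and sequenced the DNA (ChIP-seq). The animals were of strain RW12304, which carries st12304[aptf-2::TY1::EGFP::3xFLAG] IV, a CRISPR insertion that tags the endogenous aptf-2 gene, and had been synchronised by bleaching and starvation as L1 larvae. All samples belonged to 1 group of 2 biological replicates with 1 technical replicate each, so the design holds no second condition, and a control library was not analysed here. The strain is a single tagged line and whole animals mix every tissue, so the cells in which a site was occupied cannot be told apart.

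The mitochondrial ribosome translates the few messages that mitochondrial DNA encodes, all of them subunits of the respiratory chain and the ATP synthase. Its RNAs come from mitochondrial DNA, whereas its proteins are encoded in the nucleus, made in the cytoplasm and imported. In C. elegans, knockdown of members such as mrps-5 is known to induce the mitochondrial unfolded protein response and to lengthen life. Many worm genes lie in operons, in which several genes are transcribed from the promoter of the first and the downstream messages are separated by trans-splicing, so the promoter that serves a member can lie far from its own start.

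Of the sites that carried the results, 5 intergenic ones are shown as the reference sequence of the summit base and 100 bp on either side of it, the summit being the position of highest enrichment that the authors gave for a peak. The mrpl-55 site (chrIV:443735-443935, plus strand) was the weakest of those in the authors' conservative list at a member, and the mrpl-18 site (chrIII:8144658-8144858, plus strand) fell just outside that list. The other sequences come from the windows of the first genes of operon-like runs that contain a member further downstream. These first genes are F29B9.11 ahead of mrps-21 (chrIV:4660475-4660675, minus strand), nrde-2 ahead of mrps-14 (chrII:10248458-10248658, minus strand) and vps-37 ahead of mrpl-48 (chrV:5591910-5592110, plus strand). Intergenic sites at mrpl-15 and at eif-3.E, ahead of mrps-30, are described below but not shown. All positions are on WBcel235 (ce11). Each sequence reads 5′ to 3′ along the strand of the gene, from the RefSeq copy of the genome. Capitals mark matches to the 9 motifs searched: in mrpl-55 an E2F form (TTTGCCGC) at bases 98 to 105 and the reverse complement of the GATA motif (TTATCT) at bases 40 to 45, and in F29B9.11 the reverse complement of an ETS core (CTTCCGG) at bases 97 to 103.
mrpl-55: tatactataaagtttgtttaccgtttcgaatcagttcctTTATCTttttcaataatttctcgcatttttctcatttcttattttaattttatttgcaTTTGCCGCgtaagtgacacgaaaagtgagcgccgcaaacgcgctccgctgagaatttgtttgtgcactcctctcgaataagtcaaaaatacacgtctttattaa
mrpl-18: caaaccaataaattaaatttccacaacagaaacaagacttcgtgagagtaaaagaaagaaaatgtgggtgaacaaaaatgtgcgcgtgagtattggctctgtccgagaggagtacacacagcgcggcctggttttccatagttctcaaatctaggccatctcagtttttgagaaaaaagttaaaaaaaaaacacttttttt
F29B9.11: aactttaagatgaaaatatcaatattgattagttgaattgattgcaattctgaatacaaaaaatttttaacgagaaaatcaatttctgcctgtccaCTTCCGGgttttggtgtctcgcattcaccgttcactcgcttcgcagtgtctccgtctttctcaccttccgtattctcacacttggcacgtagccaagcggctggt
nrde-2: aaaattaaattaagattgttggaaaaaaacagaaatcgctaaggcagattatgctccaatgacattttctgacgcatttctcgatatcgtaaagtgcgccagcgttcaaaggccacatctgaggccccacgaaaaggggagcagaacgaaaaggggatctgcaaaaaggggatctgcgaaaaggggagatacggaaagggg
vps-37: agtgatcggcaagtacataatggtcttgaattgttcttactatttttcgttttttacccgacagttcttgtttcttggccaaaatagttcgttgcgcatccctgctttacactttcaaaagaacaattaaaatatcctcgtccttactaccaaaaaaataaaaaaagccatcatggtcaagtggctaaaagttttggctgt

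APTF-2 peaks of the conservative list lay in the promoter windows of 4 members, mrps-35, mrpl-15, mrpl-23 and mrpl-55, each with a peak of its own. This was 5.71% of the 70 members (95% Wilson interval 2.24 to 13.8%), beside 3.15% of all protein-coding genes (629 of 19973), a background that lies within the interval. The large subunit held 3 of its 41 genes (7.32%, interval 2.52 to 19.4%) and the small subunit 1 of 29 (3.45%, interval 0.611 to 17.2%), and these intervals overlap widely. The conservative list held 892 peaks. It rests on the irreproducible discovery rate (IDR), a measure of whether a peak takes a like rank in paired lists, and all 892 peaks had an IDR score of 830 or more in the ranked list, equal to a rate of 0.01 or less. Sequencing depth is unknown from peak lists, and the intervals cover the counting of genes only. Neighbouring genes can share a peak, so genes are not independent of each other.

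The small subunit gene mrps-35 had the strongest peak of any member. Its pooled signal, the value the authors' peak caller gave on an unstated scale, was 109.5, with an IDR score of 1000, and its rank was 392 in the conservative list of 892. In the replicates' own ranked lists the signal at this gene was 46.3 in replicate 1 and 60.5 in replicate 2. Signals of different lists are not on 1 scale, so the pooled value is not an average of these. The peak spanned chrV:18981031-18981326 and its summit lay 127 bp upstream of the start of mrps-35, inside a 5′ untranslated exon of the divergent gene sws-1, a factor of recombinational DNA repair. The start of sws-1 was nearer to the pooled summit, at 29 bp, so the peak cannot be assigned to either gene from its position. The replicates' own summits were displaced towards the start of mrps-35, by 60 bp in replicate 1 and 19 bp in replicate 2. The mrps-35 peak was also the only peak at a member that entered a thresholded list of a single replicate, that of replicate 2.

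The large subunit genes mrpl-15 and mrpl-23 followed. At mrpl-15, whose bacterial relative is a core protein of the large subunit, the signal was 106.8 in the pooled list, 38.9 in replicate 1 and 62.3 in replicate 2. The summit of this peak (chrI:1435536-1435831) was intergenic, 595 bp upstream of the start, and in no other gene's window. At mrpl-23, related to the bacterial protein at the mouth of the peptide exit tunnel, the pooled signal was 102.4. Its summit (peak chrI:6212705-6213000) lay 968 bp upstream, near the edge of the window and in an intron of the upstream gene fars-1, a cytoplasmic phenylalanyl-tRNA synthetase. The snoRNA gene T08B2.13, the noncoding RNA gene T08B2.14 and an annotated pseudogene stood within 200 bp of that summit, and which of these elements the peak belongs to was not tested. Replicate 1 had a signal of 54 at that site and replicate 2 one of 50.9, but the replicate 2 summit was displaced by 76 bp and fell outside the window. Within the window the highest signal of replicate 2 was 22.8, at another summit 367 bp away.

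The mrpl-55 peak was the weakest of these. Its gene product belongs to the proteins that mitochondrial ribosomes have gained and bacterial ones lack. The pooled signal was 75.4, the IDR score 891 and the rank in the conservative list 824. The replicates gave 40.6 each, but the summit of replicate 1 was displaced by 89 bp from the pooled one and that of replicate 2 by 2 bp. The pooled summit, at the E2F form in the sequence above, was intergenic and 150 bp upstream of the start. No other gene's window lay around it. The replicate 1 summit was thus not at the E2F form.

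The members' order by signal and by reproducibility differed at the limit of the list. mrpl-18, whose bacterial relative binds 5S ribosomal RNA, had a higher pooled signal than mrpl-55, 79.5, but an IDR score of 797, below 830. Its replicate signals were 38.7 and 37.1. This peak (chrIII:8144610-8144905) lay between mrpl-18, 257 bp from its start, and the divergent gene C14B9.8, 129 bp from its start. With the limit at a score of 540, an IDR of 0.05, mrpl-18 was the 1 member added, giving 5 of 70 beside 5.3% of all genes. No other member came close, since the remaining 52 with a ranked peak had scores of 307 or less and 12 of them had 31.

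**Figure D1:**
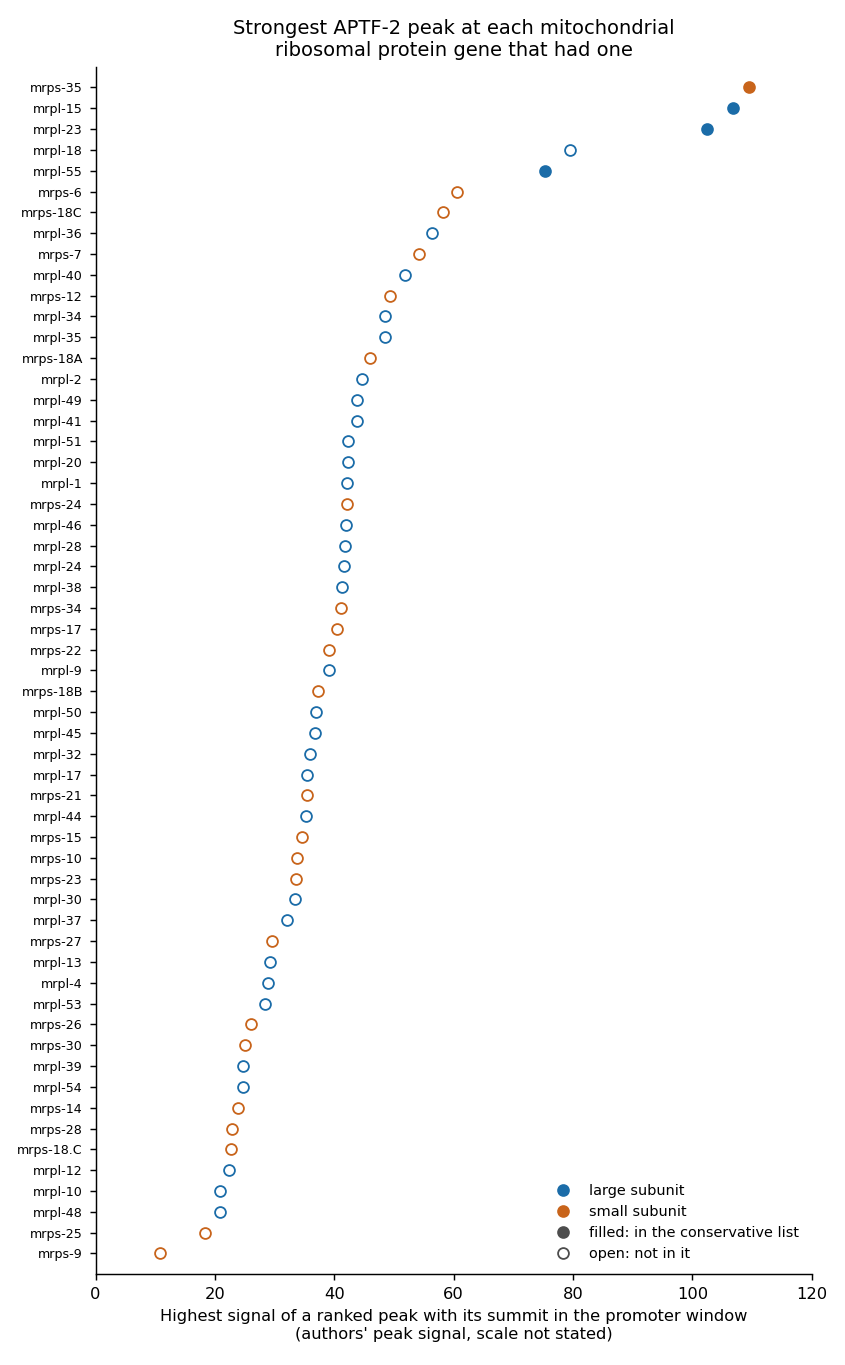
Each point is the highest pooled signal (x axis, the authors' peak signal with no stated scale) of a ranked peak with its summit in the promoter window of a mitochondrial ribosomal protein gene, for the 57 members that had one. Colours give the subunit and filled points are in the conservative list; mrpl-18 is open although its 79.5 is above the 75.4 of mrpl-55.

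The full ranked list of 94866 peaks reaches far below the conservative limit, and most genes have something in it. A ranked summit fell in the windows of 57 members (81.4%), beside 75.1% of all genes. Signals of these 57 ran from 10.9 to 109.5 with a median of 39.2, beside a median of 35.3 over the genes that had one. Below mrpl-55 the next signal was that of mrps-6. This small subunit gene had 60.5, with its summit in a coding exon of rpn-8, a subunit of the proteasome lid, and it was listed in replicate 1 (37.8) and not in replicate 2. mrps-18C followed with 58.2 (30.2 and 18.6 in replicates 1 and 2), with its summit 117 bp downstream of its start, in its own coding exon. This gene is annotated apart from mrps-18.C on another chromosome, which had 22.7. mrpl-36 had 56.3, with 24.8 in replicate 1 and 43.4 in replicate 2. mrps-7, whose bacterial relative binds the small ribosomal RNA, had 54.3 and replicate values of 26.6 and 24.6. mrpl-40 had 51.8, with 23.5 and 32.7.

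The lowest listed signals were 20.8 at mrpl-48, 18.4 at mrps-25 and 10.9 at mrps-9. The 44 other members with a ranked peak had 20.9 to 49.3. No pooled ranked summit was listed for 13 of the 70 members. Of the 70, 8 (mrpl-11, mrpl-16, mrpl-19, mrpl-21, mrpl-22, mrps-2, mrps-31 and mrps-33) had none in that list or in either replicate's list, beside 16% of all genes. The gene mrps-5, singled out for its known part in worm lifespan and named after its values were seen, was among the 13, with a single entry of 21.6 in replicate 2's list.

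Placed among all genes, members sat above the middle in the main window and near it in a shorter one. With every gene ranked by its highest pooled signal, and genes without a ranked summit tied at the bottom, the median percentile of the 70 members was 62.6, where all genes have 50 by construction. In the window from 500 bp upstream to 100 bp downstream it was 51.0. The large subunit had a median of 65.4 and the small subunit 59.3. Above the 75th percentile were 19 members (27.1%) and above the 90th 7 (10%), so the upper tail was close to that of all genes. In the main window the displacement lay in the middle of the range, where 43 members (61.4%) stood above the 50th percentile. Among genes with a ranked summit alone, the members' median percentile was 59.9.

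**Figure D2:**
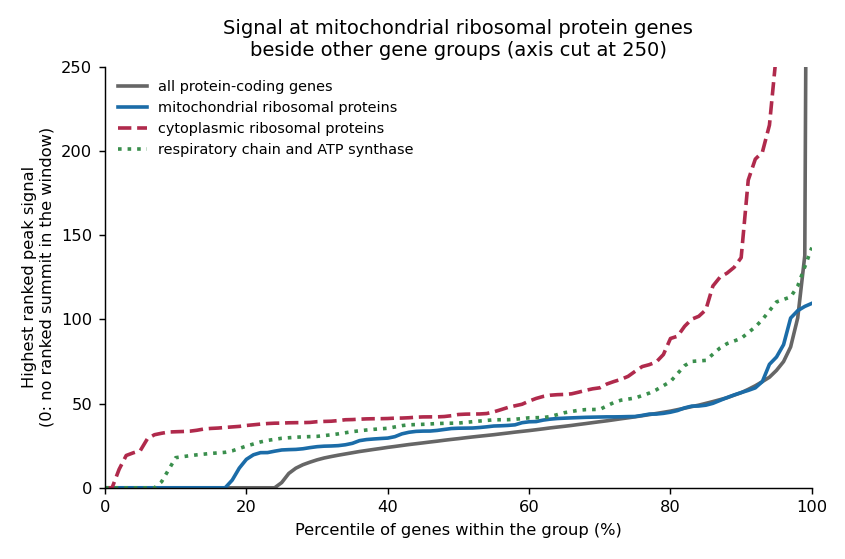
Each line gives the highest pooled peak signal (y axis, 0 where no ranked summit lay in the window, axis ended at 250) at each percentile of genes in a group (x axis). The line of the 70 mitochondrial ribosomal protein genes leaves 0 earlier than that of all genes (81.4% against 75.1% with a ranked summit) and runs close to it in the upper range, whereas the cytoplasmic ribosomal protein genes lie above both.

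Other nuclear gene groups for mitochondria and translation gave a frame for these counts. Among cytoplasmic ribosomal protein genes 15 of 81 (18.5%, interval 11.6 to 28.3%) had a conservative summit, and their median percentile was 77.1. The strongest there, rpl-35 (418.5), rpl-15 (324.2), rps-24 (297.2) and rps-23 (263.7), each exceeded every mitochondrial ribosomal protein gene. Of the respiratory chain and ATP synthase genes, whose products assemble with the polypeptides that mitochondrial ribosomes make, 7 of 41 had one (17.1%, interval 8.53 to 31.3%), with 142.6 at atp-1, 114.0 at atp-5, 110.3 at cox-5B and 97.2 at cyc-1. The intervals of both groups overlap that of the members, and no difference between groups was tested.

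Smaller groups held 1 or 2 such genes or none, beside 3.15% of all genes, and their intervals were wide. Among genes of mitochondrial gene expression 1 of 14 had a conservative summit (7.14%, interval 1.27 to 31.5%), the tRNA-modifying enzyme gene mtcu-2, with 353.5. The second tRNA synthetases, mostly mitochondrial, had 1 of 10 (10%, interval 1.79 to 40.4%), the glutamyl-tRNA synthetase gene ears-2 (130.6). Mitochondrial import had 0 of 13 (interval 0 to 22.8%), with tin-13 highest at 57.9. Protein quality control had 2 of 13 (15.4%, interval 4.33 to 42.2%), the chaperonin gene hsp-60 (125.4) and the protease gene ymel-1 (87.0). The chaperone gene hsp-6 had 72.1 and was not in the conservative list.

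The replicates ranked the members differently. A summit was listed in the window of 39 members in replicate 1's own ranked list (55.7%, beside 57.1% of all genes) and of 51 in that of replicate 2 (72.9%, beside 55.1%). Both lists covered 34 members, a single list 22 and neither 14. Signals ran from 14.0 to 54 with a median of 24.9 in replicate 1 and from 6.76 to 62.3 with a median of 20.9 in replicate 2. Over the 34 members in both, Spearman's rho was 0.122 and Pearson's r on log10 signal 0.256, beside a rho of 0.387 over the 7741 genes in both. These describe genes that share both libraries and in part share peaks, and genes are not replicates. The replicate summit was within 150 bp of the pooled one for 31 of 39 members in replicate 1 and 29 of 46 in replicate 2. For the others the values belong to different summits of 1 gene. At mrpl-2, which has 2 starts, the replicate 1 summit was 2642 bp from the pooled one, in the window of another start.

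**Figure D3:**
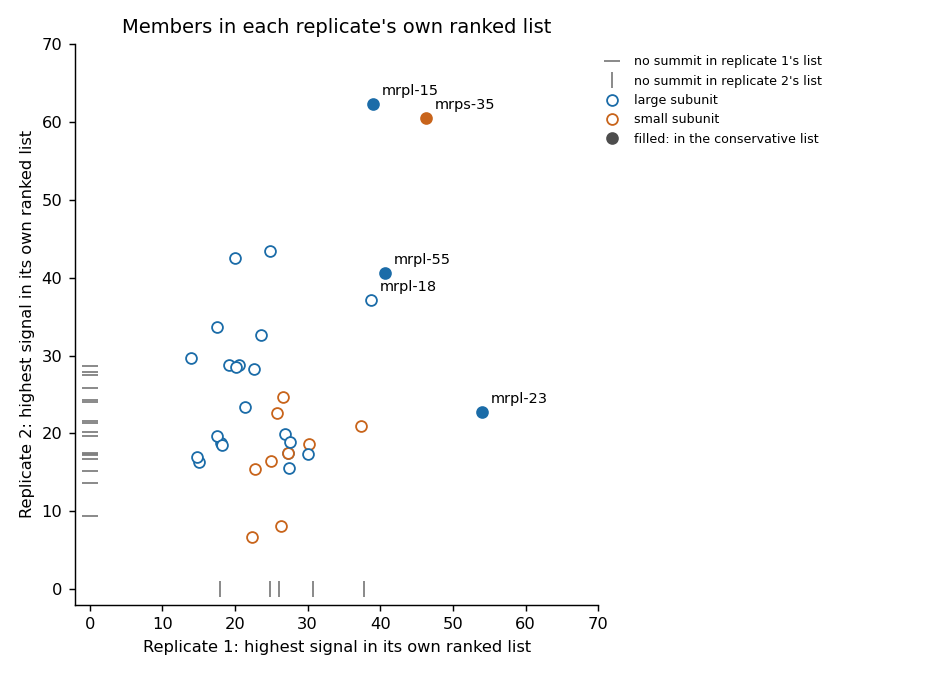
Highest signal in the promoter window in replicate 1's own ranked list (x axis) against replicate 2's (y axis) for each member, with ticks on an axis for members listed in a single replicate. Filled points, in the pooled conservative list, lie at 38.9 or more in replicate 1, and mrpl-23 appears at 22.8 in replicate 2 because that replicate's summit of 50.9 fell outside the window.

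The thresholded lists of single replicates called fewer genes. By replicate 2's list mrps-35 was the 1 member called (beside 1.7% of all genes), and by replicate 1's list none was (beside 1.46%). No conservative peak at a member overlapped a peak in both of these lists, a requirement that 1.07% of all genes met. With the stronger 50% of the conservative list 2 members, mrps-35 and mrpl-15, were called (beside 1.92%). The other thresholded list made from both replicates called the same 4 members as the main one (beside 3.07%). The lists of single replicates were also shorter, with 350 peaks for replicate 1 and 403 for replicate 2, beside 892 in the conservative list. Whether pooling or list length set the count of 4 was not tested.

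Summits at members lay mostly upstream, as in other genes. For the 57 members with a ranked summit the median position was 352 bp upstream of the nearest own start in the window (quartiles 674 and 76 bp upstream), and 47 (82.5%) lay upstream, beside a median of 347.5 bp upstream and 80.8% over all genes. A coding exon held 25 of these summits, intergenic sequence 21, an intron 8, a 3′ untranslated exon 2 and a 5′ untranslated exon 1. The own start was the nearest protein-coding start for 37 members, and 22 shared the summit with another gene's window. The 57 members had 56 distinct peaks, because the divergent pair mrpl-1 and mrps-24 shared 1 peak with a signal of 42.1. The G and C content within 100 bp of the members' summits had a median of 38.8%, the same as at the summits of all genes, beside 45.3% in the conservative list.

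**Figure D4:**
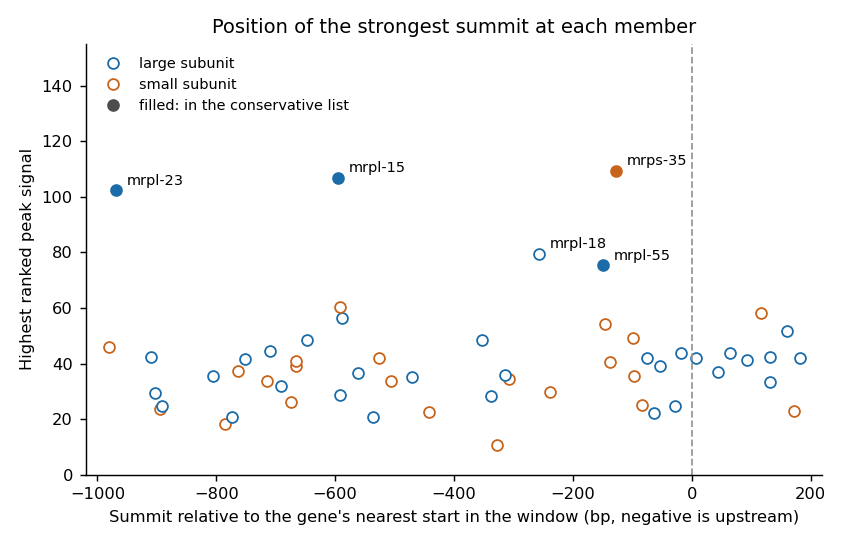
Position of each member's strongest ranked summit relative to its start (x axis, bp, negative upstream) against its pooled signal (y axis). Filled points are in the conservative list: mrps-35 and mrpl-55 lie 127 and 150 bp upstream, whereas mrpl-15 and mrpl-23 lie 595 and 968 bp upstream.

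The size and rule of the window decided several calls. In a window from 500 bp upstream to 100 bp downstream mrps-35 and mrpl-55 alone were called (2 of 70, beside 2.37% of all genes). From 2000 bp upstream to 200 bp downstream 8 were called (beside 4.09%), the additional ones being mrpl-12, mrpl-48, mrps-21 and mrps-28. Counting any base of a peak in the main window gave 7 (beside 3.36%), adding mrpl-12, mrps-21 and mrps-28. The windows of mrps-21 and mrpl-48 here reached the peaks at F29B9.11 and vps-37, the first genes of their runs. These counts therefore share peaks with the count that includes first genes, given below. By the nearest start within 2000 bp 3 were called (beside 3.16%), since mrps-35 gave way to sws-1. The most upstream start alone gave the same 4 (beside 2.94%), as did summit windows with no similar copy elsewhere in the genome (beside 2.66%).

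Mitochondrial ribosomal protein genes were placed in the genome unlike most genes. In the annotation 27 members (38.6%, beside 18.1% of all genes) were operon-like, meaning that a protein-coding gene on the same strand ended within 500 bp upstream. A further 28 (40%, beside 18%) were divergent, with an opposite-strand start within 1000 bp upstream, and 15 (21.4%, beside 63.9%) were neither. Of the operon-like members 1 had a conservative summit, mrpl-23 (beside 2.24% of all operon-like genes). Of the divergent members 1 did, mrps-35 (beside 7.66% of all divergent genes), and of the others 2 did, mrpl-15 and mrpl-55 (beside 2.13%). Median percentiles were 43.8 for operon-like members (beside 51.8 for all such genes), 71.0 for divergent ones (beside 59.6) and 73.7 for others (beside 47.2). Chromosomal counts were 15 members on I, 12 on II, 22 on III, 11 on IV and 10 on V.

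For some operon-like members a conservative APTF-2 summit lay in the window of the first gene of the run. The 27 members lay in 26 runs, and the first gene had a conservative summit in its window for 5 of the 27 (18.5%), beside 6.14% of all operon-like genes. Runs were read from gene spacing alone, so whether they are transcribed as operons was not tested. The strongest was ahead of mrps-14, at nrde-2, a gene of nuclear RNA interference, with a pooled signal of 277.4 and replicate signals of 122 and 150.025. Its summit was nearer to the start of atad-3, which encodes an ATPase of the mitochondrial membrane, and mrps-14 itself had 23.8. F29B9.11, ahead of mrps-21, had 141.3 in the pooled list and 56.4 and 81.4 in the replicates, and its start was 684 bp from that of mrps-21, which had 35.4.

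Ahead of mrpl-54, clsp-1, which encodes a checkpoint protein of DNA replication, had a signal of 134.5 and replicate signals of 51.6 and 69.4. That summit lay in a 5′ untranslated exon of eef-2, the gene of a translation elongation factor, whose start was the nearest. eif-3.E, a subunit gene of translation initiation factor eIF3, had 106.8 ahead of mrps-30, with 67.6 in replicate 1 and 34.8 in replicate 2. vps-37, of the ESCRT sorting machinery, had 77.3 ahead of mrpl-48, with 43.8 and 39.1. In each of the 5 runs both replicates listed a peak at the first gene, and the member's own pooled signal was 35.4 or less. The summits at F29B9.11, eif-3.E, nrde-2 and vps-37 were intergenic, with no similar copy of at least 100 bp and 90% identity elsewhere in the genome. Short repeats fall below this rule, and the nrde-2 sequence above holds repeats of aaaagggg.

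Across the 27 operon-like members the first gene of the run had the higher pooled signal for 19 (70.4%), beside 49.3% of all operon-like genes. First genes had a median percentile of 69.95, beside 56.9 for the first genes of all operon-like genes, while the operon-like members themselves had 43.8, beside 51.8 for all operon-like genes. mrpl-23 was the exception among the called genes, with 102.4 at its own window and 37.5 at its first gene fars-1. Counting a member when its own window or that of its first gene held a conservative summit gave 9 of 70 (12.9%), beside 4.2% of all genes by the same rule. This comparison was not tested, and the members' larger share of operon-like genes enters it.

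**Figure D5:**
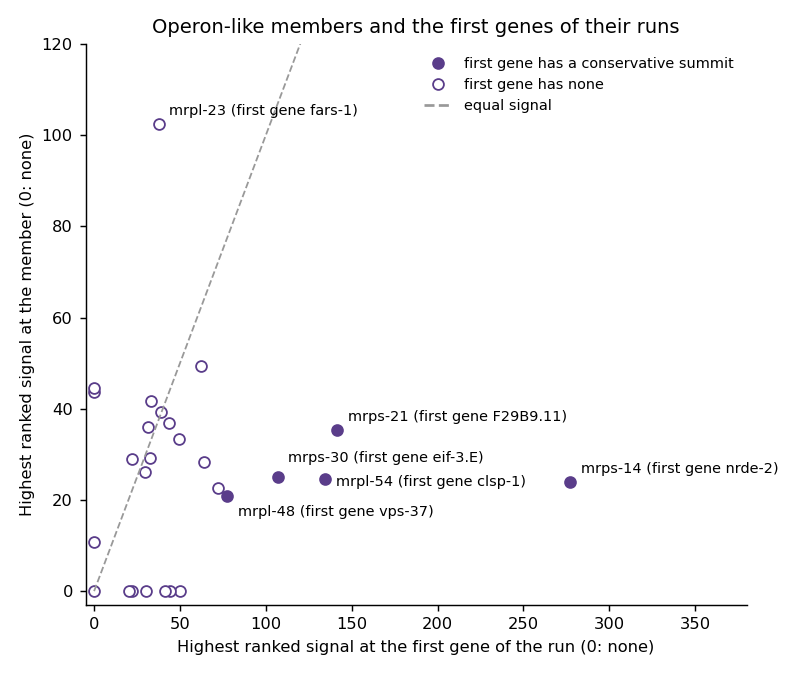
Highest pooled signal at the first gene of the run (x axis) against that at the member itself (y axis) for the 27 operon-like members, with 0 for no ranked summit and a dashed line of equal signal. Filled points are the 5 runs whose first gene has a conservative summit, all below the line, from 77.3 at vps-37 to 277.4 at nrde-2; mrpl-23 stands apart above it.

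Sequence motifs were counted on both strands in the 300 bp promoters of the members, from 250 bp upstream to 50 bp downstream of the most upstream start. An E2F form (TTTCCCGC, TTTGGCGC, TTTCGCGC or TTTGCCGC) was found in 6 of 70 (8.57%), those of mrpl-11, mrpl-28, mrpl-41, mrpl-55, mrps-16 and mrps-31, beside 4.67% of all promoters. Of these mrpl-55 had a conservative summit. Within 100 bp of the members' summits the E2F share was 5.36%, beside 4.6% at gene summits and 12.2% at conservative summits. The AP-2 palindrome GCCNNNGGC was in 1, that of mrpl-23 (1.43%, beside 1.28%), some distance from its summit, and in none of the 56 distinct windows of 100 bp on either side of the members' summits (beside 1.44% of gene summits and 2.69% of conservative summits). The splice acceptor TTTCAG was in 47 promoters (67.1%, beside 51.7%) and at 50% of the members' summits (beside 32.5% of gene summits and 18.7% of conservative summits). Shares of the SP1 box GGGCGG (8.57%, beside 7.81%), the E-box CACGTG (7.14%, beside 5.83%), GAGAGA (21.4%, beside 21.8%) and the GATA motif AGATAA (21.4%, beside 21.2%) were near those of all promoters. Neither the ETS core CCGGAAG (1.56% of all promoters) nor the NRF-1 core CGCATGCG (0.11%) was found in a member's promoter. GAGAGA matches can overlap each other and were counted once per window. Each match is a description of letters, and no match says only that these letters were absent from the window.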

How the data were processed

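ChIP-seq peak lists of 2 biological replicates in 1 group, taken from the labels, were used. Per a README that accompanies each sample, the authors made them on assembly ce11 from the alignments of a single replicate or of both, with a further file. Which aligner and peak caller were used is not stated there or in the labels. The deposited signal of a peak has no stated scale, the deposited IDR score runs to 1000, and a deposited −log10 column holds the global IDR. Ranked lists held 54777 peaks for replicate 1, 51529 for replicate 2 and 94866 for the main list from both; a second ranked list and a second thresholded list from both replicates (832 peaks) served as alternatives. Without read counts, the depth of each sample is unknown. Deeper libraries yield more peaks, and signals were compared within a list.

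Genes (19973, with 29314 starts on 6 nuclear chromosomes) came from Ensembl release 115, and all peak ends lay within the WBcel235 chromosome lengths. Similar copies of a summit window were BLAST 2.17.0 matches with at least 100 bp and 90% identity, and the other tools were Python 3.11.15, SciPy 1.17.1, pandas 2.3.3, NumPy 2.4.6 and matplotlib 3.10.9. Sequences came from the RefSeq WBcel235 genome. Window assignment was tested on simulated data. No test was run: with 1 group and no counts, values are descriptions. A percentile is the share of all genes with a lower highest signal, ties counted equally on both sides. Operon-like was assigned before divergent.

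The members and the gene lists were chosen with earlier results of these data known. Named were all members with a conservative summit, of the others the 6 with the highest and the 3 with the lowest ranked signal, and up to 4 genes of each further list; genes that an arrangement, a motif or a setting called are named beside their count. Alternatives covered the other lists, each replicate alone, stronger peaks, other windows and starts, and the first gene of a run. After the data were seen, 3 were added: an IDR score of 540, single-copy windows, and percentiles among genes with a ranked summit. In the lists, mars-2, wars-2 and gfm-2 matched no gene name.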

Additional observations from a re-analysis of the deposited data

How the results depend on the processing

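The count of 4 members with a conservative summit was 0 to 1 with a single replicate's list, 2 with the stronger 50% of the list, 0 when a peak had to be in both replicates' lists, 2 in the window of 500 bp upstream and 100 bp downstream, 8 in the window reaching 2000 bp upstream, 7 by any base of the peak and 9 with first genes of runs included. It was 4 with the other thresholded list, the most upstream start and single-copy windows, 3 by the nearest start and 5 at an IDR score of 540. The share of all genes called moved with these settings too. It was 3.15% in the main setting, lowest at 1.07% with both replicates' lists required and highest at 5.3% with an IDR score of 540. The shorter window is nested in the main one and cannot call more genes.

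The median percentile of 62.6 was 57.2 to 59.8 with a single replicate's list, 51.0 in the window of 500 bp upstream and 100 bp downstream, 65.8 with the most upstream start and 59.9 among genes with a ranked summit. It was 62.5 with the other ranked list. In the shorter window the highest signal was 22.8 at mrpl-36 and 44.3 at mrpl-40, with none listed at mrpl-15, mrpl-23, mrps-6, mrps-18C and mrps-25; the cause of the percentile's shift was not tested. No paired analysis was possible because both replicates belong to 1 group. Depth is unknown, so a member without a listed peak is not shown to be unbound.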
